A study of Mus musculus with 16 samples.

Results

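Collagen and laminin genes were followed in 16 RNA libraries of cultured mouse cortical neural progenitors. The family was picked for study with earlier results of these data known. Its members were then taken by name, as protein-coding genes whose symbol is Col with a chain number, or Lama, Lamb or Lamc with a digit. This gave 55 genes of 49166 (44 collagens and 11 laminins), of which 43 (33 collagens and 10 laminins) passed the low-count filter that left 16971 genes for testing. The study used progenitors from E18.5 (embryonic day) cortex of 2 litters, given a lentivirus with Cas9 and a guide RNA against the chromatin remodeller gene Chd1, or a lentivirus with Cas9 alone. All cultures passed through 48 h of puromycin selection and were expanded before a final 24 h of treatment. The 4 groups of 4 libraries were WT DMSO (Cas9 alone, vehicle), KO DMSO (Chd1 guide, vehicle), KO DHT (Chd1 guide, 10 nM dihydrotestosterone, an androgen) and KO DHT+ENZ (Chd1 guide, 10 nM dihydrotestosterone with 10 µM enzalutamide, an androgen receptor antagonist, added 30 min earlier). There was no WT culture with either agent and no culture with enzalutamide alone, so the response to DHT could not be compared between genotypes. The guide's cells were a selected population and not a clone, and the labels describe the control both as a control guide vector and as Cas9 without a guide.

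Collagens are triple helices built from 3 alpha chains, and the class of a chain sets what it assembles into. Fibril-forming collagens such as types I, III, V and XI make striated fibres, type IV collagen makes the sheet-like network of basement membranes, and FACIT collagens sit on fibril surfaces. Laminins are cross-shaped trimers of 1 alpha, 1 beta and 1 gamma chain, which form the other basement membrane network and bind integrins and dystroglycan on the cell surface. In the developing cortex, laminins and type IV collagen lie in the pial basement membrane, where the endfeet of radial glia attach, and around vessels. Both families are made in the endoplasmic reticulum, where prolyl and lysyl hydroxylases modify collagen chains before secretion.

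Sequencing depth was 31.8 to 36.9 M estimated counts (M, mega) in 15 libraries and 20.2 M in WT DMSO replicate 1, which also stood apart in values given below. Libraries of one replicate number share a prefix in the deposited file names and form 4 sets, here sets 1 to 4. The model held the set as a block. The targeted gene, Chd1, was between 59.9 and 77.0 CPM (counts scaled to a common library size, with TMM factors) in all 16 libraries, and KO DMSO differed from WT DMSO by a log2 fold change of 0.01 (SE 0.08, adjusted p = 0.979, edgeR). Its level therefore does not check the labels, since small Cas9 lesions need not lower a transcript, and KO here means the label. Markers fitted the labelled cell type in part. The 14 markers of cortical progenitors and radial glia summed to 7229 to 8944 TPM (kallisto's level scaled for transcript length and library), although Hes5 of this list averaged 0.88 TPM. Astrocyte and oligodendrocyte precursor genes summed to 1373 to 1736 TPM, mostly Olig1 at 859 TPM and Olig2 at 493 TPM. Of the same list, Gfap averaged 1.70 TPM, Pdgfra 0.88 TPM, Aqp4 0.11 TPM, Sox10 0.048 TPM, Gjb6 0.017 TPM and Gpr17 0.0048 TPM. Its other genes, Aldh1l1 at 74.0 TPM, Sox9, Cspg4 and S100b, lay between. The sum therefore does not show that the cultures were rich in these cells. Neuronal genes summed to 252 to 521 TPM, mostly Map2 at 348 TPM and Tubb3 at 37.6 TPM, with Dcx at 0.27 TPM. The microglial genes C1qa, C1qb and Tyrobp were at 0 in every group by mean.

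The upstream sequence of Col5a1 is shown because it was 1 of the 2 genes of the family called in any comparison, and that of Col5a3 because it encodes another type V chain and had the smallest p-value of the family between KO DMSO and WT DMSO. Both are the 250 bases before the annotated start, 5′ to 3′ on the gene's strand, from RefSeq (GRCm38.p6). Col5a1 is at chr2:27886175-27886424 on the plus strand, and Col5a3 at chr9:20815068-20815317 on the minus strand. Capitals mark the GC box letters GGGCGG or their reverse complement CCGCCC.
Col5a1: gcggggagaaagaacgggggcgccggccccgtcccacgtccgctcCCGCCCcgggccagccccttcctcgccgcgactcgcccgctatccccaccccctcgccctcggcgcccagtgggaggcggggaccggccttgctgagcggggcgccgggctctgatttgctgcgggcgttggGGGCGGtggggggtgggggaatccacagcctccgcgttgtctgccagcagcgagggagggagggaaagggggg
Col5a3: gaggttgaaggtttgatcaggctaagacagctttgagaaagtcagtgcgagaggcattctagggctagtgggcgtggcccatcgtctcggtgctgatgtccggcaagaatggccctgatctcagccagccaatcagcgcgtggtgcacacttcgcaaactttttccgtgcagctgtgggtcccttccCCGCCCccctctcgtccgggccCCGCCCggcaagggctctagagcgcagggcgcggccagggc
Each of these windows held the GC box letters 2 times, and their GC content was 76.4% and 62.8%, beside a median of 52.4% over all windows. A GC box occurred in 24 of 44 windows of the 40 family members with an entry (54.5%) and in 32.7% of all 32851 windows. The letters AGAACA or TGTTCT, an androgen receptor half-site, were in neither printed window, in 3 of the 44 family windows (6.82%; Col9a1, Col20a1 and Lama2) and in 16.1% of all windows. TATAAA or its complement was in 11.4% of family windows and 12.4% of all windows, and CCAAT or its complement in 31.8% and 33.9%. The full promoter entries of Col4a1 and Col4a2, which lie head to head on opposite strands, shared 78 bases. This overlap was read over the whole entries and not over the 250 bases searched above.

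The progenitors expressed a narrow part of the family. By mean TPM over all 16 libraries, 24 of 55 genes reached 1 TPM, 14 reached 10 TPM and 4 reached 50 TPM. The highest laminins were Lamc1 (gamma 1 chain) at 117 TPM, Lamb2 (beta 2) at 56.3 TPM and Lamb1 (beta 1) at 26.0 TPM. The highest collagens were Col28a1 (a von Willebrand factor domain collagen of peripheral glia) at 79.6 TPM, Col9a3 (a FACIT chain best known from cartilage) at 77.6 TPM and Col16a1 (another FACIT chain) at 36.1 TPM. Interstitial collagens were at the other end: Col1a1 averaged 0.50 TPM, and Col1a2 and Col3a1 never exceeded 13 and 11 counts in a library. In all, 12 members were under the filter, each with at most 19 counts in any library: Col1a2, Col3a1, Col6a3, Col6a5, Col6a6, Col8a1, Col10a1, Col14a1, Col15a1, Col17a1, Col24a1 and Lamc3.

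**Figure D1:**
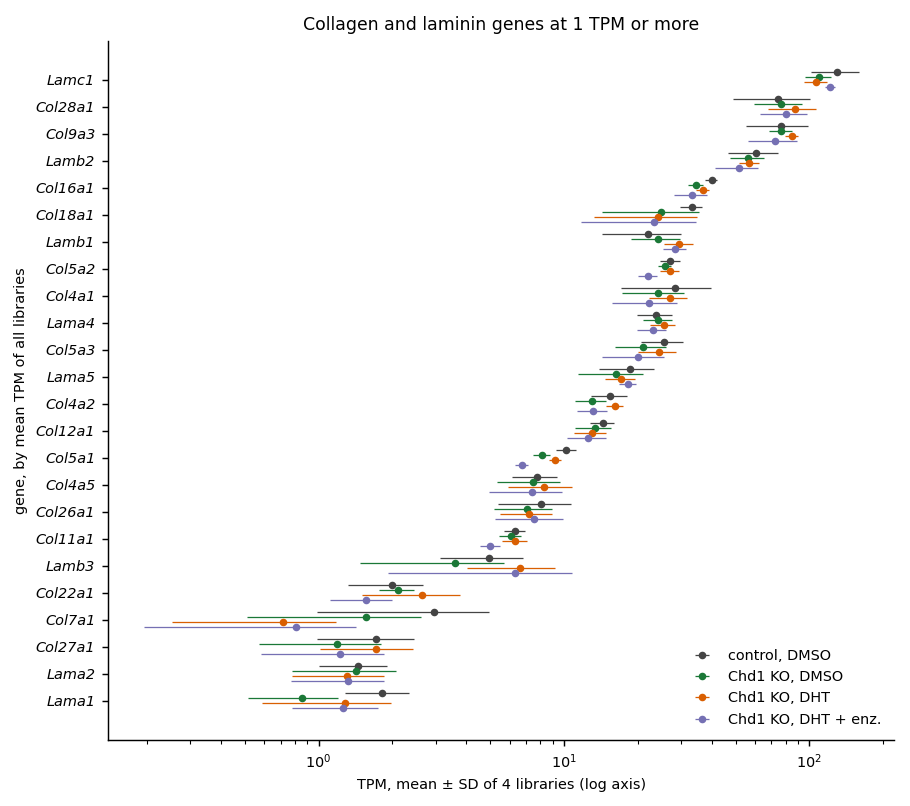
Length-scaled level (TPM, log axis) of the 24 genes with a mean of at least 1 TPM, ordered by their mean over all libraries; points are means and bars SDs of the 4 libraries of each group. Lamc1 was highest at 117 TPM, and the 4 groups overlapped widely for most genes.

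Chain partners were unequal in transcript level. Summed over chains, laminin gamma transcripts averaged 118 TPM (SD 17.9, n = 16), beta 87.7 TPM (SD 13.3) and alpha 44.5 TPM (SD 5.75). The alpha class was thus the lowest by TPM. Alpha transcripts were mainly Lama4 at 24.1 TPM and Lama5 at 17.5 TPM, with a Lama5 to Lama4 ratio of 0.74 (SD 0.15). Type IV collagen came mainly from Col4a1 at 25.4 TPM and Col4a2 at 14.4 TPM, the pair that forms the common trimer of 2 alpha 1 chains and 1 alpha 2 chain. Their TPM ratio was 1.74 (SD 0.30, range 1.36 to 2.29). For type V collagen, the ratio of Col5a2 to Col5a1 was 3.02 (SD 0.40), although the usual trimer has 2 alpha 1 chains and 1 alpha 2 chain, and Col5a3 to Col5a1 was 2.67 (SD 0.56). The Lamb2 to Lamb1 ratio was 4.67 in WT DMSO replicate 1 and 1.49 to 2.84 in the other libraries.

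Some levels rested on short or non-coding models. A single coding transcript made up 99.7% of Col5a1, 99.1% of Col5a2, 99.0% of Col5a3, 96.6% of Col4a1 and 98.6% of Col4a2 by TPM. Col18a1 was 94.9% a coding transcript of 5063 bases. In contrast, a 749-base model held 36.3% of Col28a1 TPM, with 4.40 TPM in WT DMSO replicate 1 against 16.6 to 42.6 TPM in the others. A 1447-base model held 17.3% of Lamc1 and was at 0 in WT DMSO replicate 1 and in KO DMSO replicate 4. The main coding transcript held 64.4% of Col9a3, and a retained-intron model of 644 bases held 21.75%. For Col16a1 the main coding transcript held only 42.75%. How kallisto divided reads among such models was not tested.

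Between KO DMSO and WT DMSO, none of the 43 genes was called (edgeR quasi-likelihood test, adjusted p under 0.05), beside 0.0% of all genes tested. Most of the family lay on the lower side in KO DMSO: 38 of 43 fold changes were below 0 (88.4%, median -0.24), against 50.2% of all genes (median -0.001). An unadjusted p under 0.05 was met by 9 of 43 (20.9%), against 7.83% of all genes. The log2 CPM was lower in KO in 4 of 4 pairs for 11 genes (25.6%), against 6.57% of all genes, and higher in 4 of 4 for 0 (6.24% of all genes). Without WT DMSO replicate 1 the median was -0.13 with 33 below 0, and without set 1 it was -0.17.

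The pairs did not contribute equally. Over the 17 genes with at least 10 CPM, the median log2 difference was -0.19, -0.25 and -0.17 in pairs 1 to 3 and -0.03 in pair 4. Among all 9747 genes at that level, the pair medians lay between -0.01 and 0.02. By class, all 8 tested fibril-forming collagens were below 0 (median -0.33), as were 5 of 6 type IV collagens (-0.17), 7 of 8 FACIT collagens (-0.21) and 9 of 10 laminins (-0.17).

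Col5a3, which encodes the alpha 3 chain of type V collagen, was at 129, 116, 89.4 and 109.9 CPM in WT DMSO sets 1 to 4 and at 94.5, 93.4, 68.5 and 107 CPM in KO DMSO. It was lower in every pair, by little in set 4, and the groups overlapped (log2 fold change -0.30, SE 0.08, adjusted p = 0.475, edgeR). Col5a1, the alpha 1 chain needed for every type V trimer, was at 68.3, 65.2, 61.6 and 54.4 CPM in WT DMSO and 42.4, 54.1, 50.3 and 51.4 CPM in KO DMSO. All 4 WT libraries were above all 4 KO libraries, a separation seen in 4 of 43 family genes toward lower and in 0.465% of all genes, but Col5a1 did not pass (-0.34, SE 0.09, adjusted p = 0.513, edgeR). Its fold change was -0.21 without set 1 and -0.22 without WT DMSO replicate 1.

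Col18a1, a multiplexin of basement membranes whose C-terminal fragment is endostatin, had the third smallest p-value and an uneven pattern. In WT DMSO its CPM was 125, 102, 120 and 99.4 in sets 1 to 4. In KO DMSO it was 112, 51.5, 63.3 and 104. The difference lay in sets 2 and 3 (log2 -0.99 and -0.93), with -0.16 in set 1 and 0.07 in set 4. The same 2 sets were low in KO DHT (43.2 and 61.4 CPM, against 106 and 101) and in KO DHT+ENZ (44.6 and 58.2 CPM, against 111 and 107). The fitted log2 fold change of Col18a1 between KO DMSO and WT DMSO was -0.55 (SE 0.17, adjusted p = 0.513, edgeR), and its range over the settings tried was -0.74 to -0.34, the latter without WT DMSO replicate 2.

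**Figure D2:**
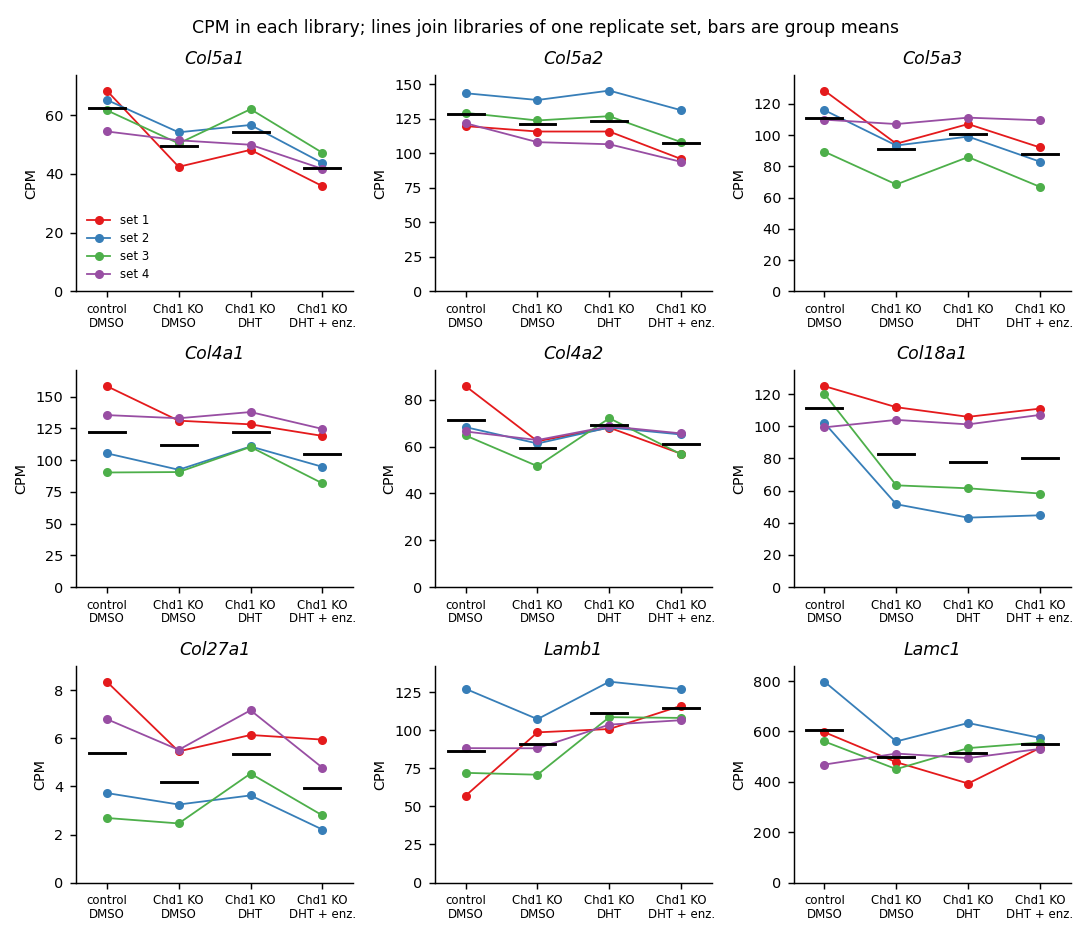
TMM-scaled CPM of 9 genes in each library, by group on the horizontal axis; colours and lines mark the 4 replicate sets and black bars the group means. Col18a1 was low in sets 2 and 3 of every KO group, and Col5a1 and Col5a2 were lowest in KO DHT+ENZ in each set.

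DHT alone called no family gene against KO DMSO (0 of 43), beside 0.0% of all genes tested, by edgeR. An unadjusted p under 0.05 was met by 3 of 43 (6.98%), against 8.0% of all genes. Fold changes were above 0 for 33 of 43, with a median of 0.07 against -0.002 for all genes. Differences moved with transcript length. In pairs 1 to 4, the rank correlation between a gene's log2 difference and its length was 0.10, 0.66, 0.53 and 0.41 over 9747 genes, given as a description. Family genes at 10 CPM or more had a median length of 6099 bases, against 2693 for all such genes, and after the length trend was taken out their median moved from 0.08 to -0.01. By pair, the median of the 17 genes was -0.03 in pair 1, 0.13 in pair 2, 0.25 in pair 3 and -0.02 in pair 4.

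Col4a2, the alpha 2 chain of type IV collagen, had the smallest p-value with DHT. It was at 62.3, 61.3, 51.6 and 62.8 CPM in KO DMSO and at 68.1, 68.2, 72.1 and 68.7 CPM in KO DHT. No KO DHT library overlapped KO DMSO, which was so toward higher for 1 of 43 family genes and 0.754% of all genes, and Col4a2 did not pass (0.22, SE 0.09, adjusted p = 0.606, edgeR). Its fold change was 0.10 after the length correction and 0.14 without set 3. In WT DMSO it was 85.8, 68.3, 64.7 and 66.4 CPM, all above KO DMSO. KO DMSO is shared by both of these comparisons, so its low values enter each with the opposite sign.

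Col27a1, a fibril-forming collagen of cartilage, was at only 2.21 to 8.36 CPM and differed more between sets than between groups. In KO DMSO it was at 5.46, 3.25, 2.46 and 5.53 CPM and in KO DHT at 6.14, 3.63, 4.54 and 7.17 CPM. It was higher with DHT in every pair and the groups overlapped (0.40, SE 0.16, adjusted p = 0.606, edgeR). Lamb1, the beta 1 chain of the main embryonic laminins, was at 98.6, 107, 70.8 and 88.2 CPM in KO DMSO and 101, 132, 109 and 104 CPM in KO DHT. It too was higher in every pair, by a log2 difference of 0.03 in set 1 and 0.62 in set 3 (fitted 0.29, SE 0.13, adjusted p = 0.622, edgeR). Without set 3, the fold change was 0.25 for Col27a1, as without KO DHT replicate 3 alone, and 0.19 for Lamb1.

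Adding enzalutamide to DHT gave the only called genes of the family. Against KO DHT, Col5a1 and Col5a2, both chains of type V collagen, were lower in KO DHT+ENZ, which is 2 of 43 (4.65%) beside 3.48% of all genes in either direction and 1.92% called lower. With counts this small, that share is near the background. Of the other family genes none was called, and 9 of 43 (20.9%) met an unadjusted p under 0.05 against 15.7% of all genes. Fold changes were below 0 for 34 of 43 (79.1%, median -0.13), against 51.0% of all genes (median -0.01). At 10 CPM or more, 14 of 17 family genes were below 0 (median -0.107), against 44.25% of all such genes. Under 10 CPM these were 20 of 26 and 60.1%. The rank correlation of the log2 difference with length was 0.20, -0.59, -0.30 and -0.35 in pairs 1 to 4. After the length trend was taken out, the family median was -0.12 (32 of 43 below 0), and -0.045 for the 17 genes. In 4 of 4 pairs, 12 family genes were lower (27.9%, against 14.2% of all genes) and 2 higher (4.65%, against 14.0%).

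Col5a1 was at 48.2, 56.6, 62.0 and 49.9 CPM in KO DHT sets 1 to 4 and at 35.8, 43.7, 47.2 and 41.7 CPM in KO DHT+ENZ. Every library with enzalutamide was below every KO DHT library, and the log2 fold change was -0.36 (SE 0.09, adjusted p = 0.0388, edgeR). The call of Col5a1 held without set 1 (-0.34, adjusted p = 0.0127, edgeR) but ended without the replicate block (adjusted p = 0.289), after the length correction (-0.27, adjusted p = 0.226), with a length offset (adjusted p = 0.0627), without set 2, 3 or 4, and without any 1 library of KO DMSO, KO DHT or KO DHT+ENZ or WT DMSO replicate 2. Over the 27 settings its fold change stayed between -0.40 and -0.27, with adjusted p from 0.00107 to 0.385.

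Col5a2, the alpha 2 chain, was at 116, 145, 127 and 107 CPM in KO DHT and at 95.8, 131, 108 and 93.7 CPM in KO DHT+ENZ. It was lower in every pair by a log2 difference of 0.15 to 0.27 in size, although the groups overlapped, and set 2 was the highest in both (-0.21, SE 0.05, adjusted p = 0.0489, edgeR). Its call held in 4 of 27 settings and ended after the length correction (-0.14, adjusted p = 0.393), without set 1 (-0.18, adjusted p = 0.0736) and without the block (adjusted p = 0.880, edgeR). The third type V chain gene, Col5a3, was at 107, 99.1, 86.0 and 111 CPM in KO DHT and at 92.1, 83.0, 66.9 and 109.5 CPM with enzalutamide. It was lower in all 4 pairs, by 0.02 in set 4, and did not pass (-0.21, SE 0.08, adjusted p = 0.171, edgeR).

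Other fibril-forming genes lay on the same side without passing. Col27a1 was at 5.95, 2.21, 2.80 and 4.78 CPM with enzalutamide, lower than KO DHT in each pair (-0.50, SE 0.16, adjusted p = 0.117, edgeR). Col11a1, a chain of type XI collagen and a partner of type V chains in mixed fibrils, was at 26.9 to 30.5 CPM in KO DHT and 22.5 to 26.4 CPM in KO DHT+ENZ, with no overlap (-0.22, SE 0.08, adjusted p = 0.210, edgeR). Groups without overlap toward lower were found for 3 of 43 genes, Col5a1, Col11a1 and Col4a2, and for 2.97% of all genes. All 8 tested fibril-forming collagens were below 0 (median -0.36), as were 5 of 6 type IV collagens (-0.21) and 7 of 8 FACIT collagens (-0.09), but 6 of 10 laminins (-0.05). Col11a1 was chosen here after its values were seen.

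Col4a1, named after its values were seen because its call depends on the libraries used, was at 128, 111, 110.3 and 138 CPM in KO DHT and 119, 94.7, 81.7 and 124.5 CPM with enzalutamide. The groups overlapped, each pair was lower (-0.23, SE 0.08, adjusted p = 0.131, edgeR), and 2 settings called it, without set 1 and without WT DMSO replicate 1. Its neighbour Col4a2 was at 56.9, 65.2, 56.7 and 65.6 CPM with enzalutamide (-0.18, SE 0.09, adjusted p = 0.330, edgeR). Without set 1 the family genes called were Col5a1, Col4a1 and Col27a1, each lower, beside 7.11% of all genes. Without WT DMSO replicate 1, a library outside this comparison that shares its estimate of the spread, they were Col5a1, Col5a2, Col4a1 and Col11a1, beside 8.59% of all genes. Without the replicate block, 0 of 43 were called beside 0.265%.

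No laminin was called, with 6 of 10 below 0 and 4 above. Lamc1 was at 393, 633, 534 and 494 CPM in KO DHT and 534, 574, 556 and 530.5 CPM with enzalutamide, higher in sets 1, 3 and 4 and lower in set 2 (0.11, SE 0.11, adjusted p = 0.699, edgeR). Lamb2 was lower in each pair (-0.11, SE 0.07, adjusted p = 0.552, edgeR), as was Lamb3 (-0.29, SE 0.14, adjusted p = 0.351, edgeR). By TPM, Lamb3 was mostly short non-coding models of 258 and 355 bases (49.7% and 23.4%). The counts tested are not scaled for length, so its longer coding models weigh more in them. Lama5 was higher in 2 pairs and lower in 2 (-0.13, SE 0.13, adjusted p = 0.715, edgeR).

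**Figure D3:**
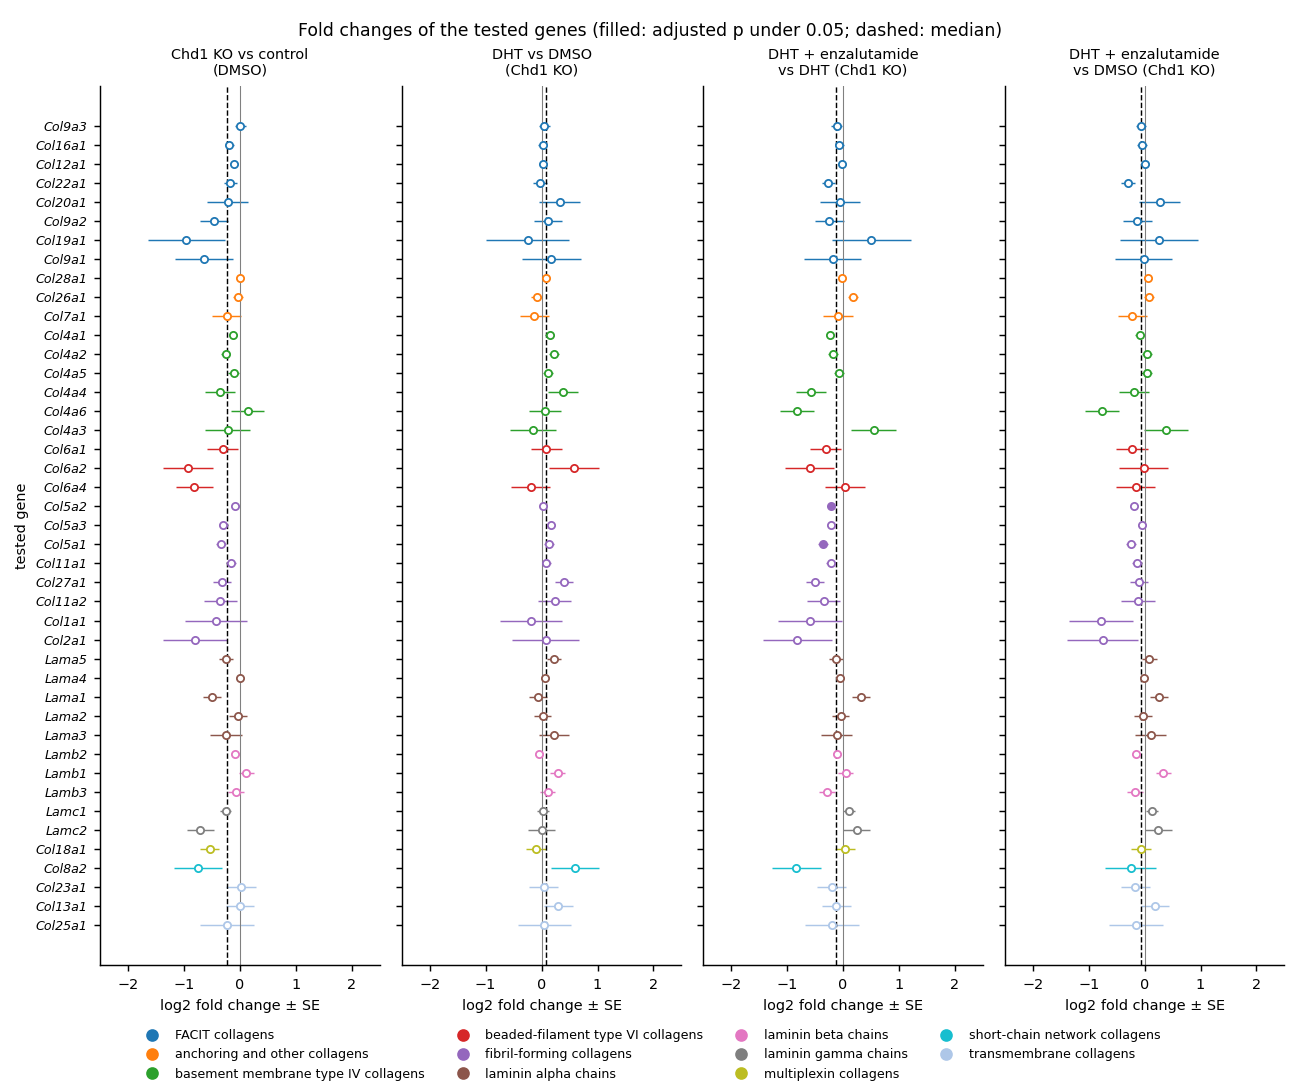
Fitted log2 fold change with SE of the 43 tested genes in the 4 comparisons, coloured by class and ordered by level within a class; filled points have an adjusted p under 0.05 and the dashed line is the family median. The medians were -0.24, 0.07, -0.13 and -0.07 from left to right, and Col5a1 and Col5a2 in the third panel are the only filled points.

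Against KO DMSO, KO DHT+ENZ called no family gene (0 of 43), beside 2.94% of all genes, by edgeR. An unadjusted p under 0.05 was met by 5 of 43 (11.6%), against 13.5% of all genes, and fold changes were below 0 for 28 of 43 (median -0.07, against 0.01 for all genes). Col5a2 was at 116, 139, 124 and 108 CPM in KO DMSO and lower with both agents in each pair (-0.19, SE 0.05, adjusted p = 0.0897, edgeR). Col5a1 was also lower in each pair (-0.24, SE 0.09, adjusted p = 0.225, edgeR). Lamb1 was higher in each pair, at 116, 127, 108 and 107 CPM with both agents (0.34, SE 0.13, adjusted p = 0.252, edgeR). Lamb1 was called without set 1, as the 1 family gene beside 3.71% of all genes, and without WT DMSO replicate 1, together with Col5a1 and Col5a2 (3 of the family beside 7.24%). Without the replicate block, 0 of 43 were called beside 0.253%. This comparison shares KO DHT+ENZ with the one against KO DHT and KO DMSO with the others.

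For most genes the replicate set was a larger source of difference than the treatment. The range between the 4 set means was wider than the range between the 4 group means for 32 of 43 family genes (74.4%), much as for all genes (74.3%). Its median was 0.61 against 0.36 on the log2 scale for the family, and 0.40 against 0.25 for all genes. An edgeR F test of the set, added after seeing the data, called 24 of 43 family genes (55.8%), against 44.1% of all genes. Among the 17 genes at 10 CPM or more it called 12 (70.6%), against 51.5% of such genes.

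Many family genes split sets 1 and 4 from sets 2 and 3, and the direction of that split differed between genes. Col4a1 averaged 134, 101, 93.2 and 133 CPM in sets 1 to 4, and all 8 libraries of sets 1 and 4 were above all 8 of sets 2 and 3. That was so for 5 of 43 family genes (11.6%; Col4a1, Col4a5, Col7a1, Col11a2 and Col27a1) and 5.77% of all genes, with the opposite order in 0 and 6.48%. Col28a1 instead was highest in set 2, at 201 CPM against 150, 129 and 142 CPM, and so were Col5a2 (140 CPM against 112, 122 and 107.5 CPM) and Lamb1 (123 CPM against 93.1, 89.9 and 96.7 CPM). Col4a2, whose start lies beside that of Col4a1, averaged 68.3, 65.7, 61.3 and 65.9 CPM and showed little set difference (adjusted p = 0.466, edgeR), so the ratio of these 2 chains moved with the set. Litters are not assigned to replicates in the labels, so a part of the litter in these set differences was not tested.

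**Figure D4:**
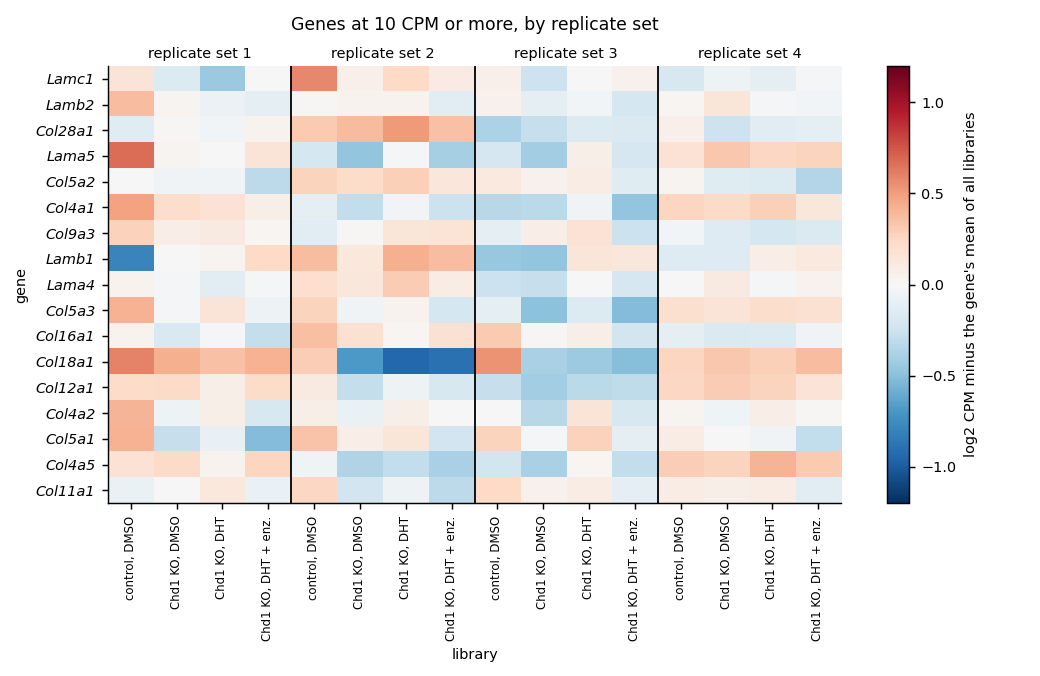
Log2 CPM of the 17 genes that averaged 10 CPM or more, minus each gene's mean over the 16 libraries, with libraries arranged by replicate set and the 4 groups in order within each set. Col4a1 and Col4a5 were high in sets 1 and 4, Col28a1 was high in set 2, and WT DMSO replicate 1 stands out for high Lama5 and low Lamb1.

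WT DMSO replicate 1 departed from its group in several family genes. Lama5 was at 207 CPM there, against 112, 112 and 146 CPM in the other WT libraries. Lamb1 was lowest there at 57.0 CPM, against 127, 72.0 and 88.3 CPM, although replicate 2 at 127 CPM lay further from the rest. Col4a2 and Lamb2 were also highest there.

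Markers of matrix-rich cells were low in level. Their pericyte, meningeal and fibroblast list was lowest with enzalutamide in each set, as was the list of cortical progenitor genes. The list of pericyte, meningeal and fibroblast genes (8 of 16 tested) summed to 44.2 to 47.7 TPM in KO DHT+ENZ, against 50.3 to 61.7 TPM in KO DHT, 47.8 to 52.4 TPM in KO DMSO and 47.5 to 61.6 TPM in WT DMSO. All 4 libraries with enzalutamide were below all KO DHT and all KO DMSO libraries. The median log2 fold change of the 8 tested genes against KO DHT was -0.19, beside -0.13 for the family. Most of that sum was Fn1 at 16.6 TPM, Cspg4 at 14.1 TPM (also a gene of oligodendrocyte precursors) and Zic1 at 9.67 TPM, whereas the pericyte receptor Pdgfrb averaged 0.0062 TPM. Tbx18 of this list was called lower with enzalutamide (-0.32 against KO DHT, adjusted p = 0.0402, and -0.33 against KO DMSO, adjusted p = 0.0367, edgeR). That is 1 of 8 tested genes, beside 3.48% and 2.94% of all genes. Fn1 and Rgs5 of the list were above 0 against KO DHT (0.03 and 0.175) and the other 6 below. The progenitor list was also lowest with enzalutamide in each set, at 7229, 7730, 8342 and 7898 TPM. In KO DHT it was at 7564, 8254, 8509 and 8256 TPM, with overlapping ranges. Of its 14 genes, 11 were below 0 against KO DHT (median -0.05). Endothelial genes summed to 6.40 to 18.8 TPM, highest in WT DMSO replicate 1. Sox17 was at 1.795 TPM in that library and at 0 in all others. Cldn5 was above 0 only there and in KO DHT replicate 3. Egfl7 averaged 4.23 TPM, Emcn 1.37 TPM, Tek 1.26 TPM and Flt1 1.15 TPM, each above 0 in every library. The part of these cells in the family's values was not tested, and in bulk RNA fewer cells of a type and less RNA per cell cannot be told apart.

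Genes that act on collagen and laminin gave 5 calls, in the comparisons with enzalutamide. Of 18 genes for chain modification and folding, P3h2, a prolyl 3-hydroxylase of collagen, rose with enzalutamide from 11.3 CPM (SD 1.96, n = 4) in KO DHT to 16.7 CPM (SD 3.27), a log2 fold change of 0.57 (SE 0.11, adjusted p = 0.0140, edgeR). Pepd, the peptidase that frees proline from collagen breakdown, rose with it too, with means of 34.3 and 42.9 CPM (0.33, SE 0.07, adjusted p = 0.0204, edgeR), and none of the 18 was called lower. That is 2 of 18 genes, beside 3.48% of all genes called in this comparison. Of 16 receptors, Sdc1, a heparan sulfate proteoglycan of the cell surface, fell against KO DHT (-0.36, SE 0.09, adjusted p = 0.0454, edgeR) and against KO DMSO (-0.45, adjusted p = 0.0137), and no integrin chain on the list was called. This 1 call of 16 in each comparison stands beside 3.48% and 2.94% of all genes. The call of Sdc1 against KO DHT ended after the length correction (adjusted p = 0.0593, edgeR). Of 14 basement membrane partners, Fbln1 fell against KO DMSO, from 47.1 to 36.3 CPM (-0.39, SE 0.09, adjusted p = 0.0336, edgeR), as 1 of 14 beside 2.94%. None of the 14 tested genes for extracellular processing and crosslinking and none of the 12 tested proteases and inhibitors was called in any comparison. Without the replicate block none of these calls held (adjusted p 0.370 for P3h2, 0.695 for Pepd, 0.946 and 0.980 for Sdc1 and 0.521 for Fbln1, edgeR).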

How the data were processed

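Per the labels' protocols, libraries from polyA RNA (integrity number over 8) were read as pairs of 150 bases, aiming at 30 M reads each. Per the submitters' processing notes, the authors quantified reads with kallisto on GRCm39 (version not given in the sources used here). The deposited estimated counts per transcript are not normalized, and the deposited TPM values are scaled for length and library. Of 146190 transcripts, 135007 matched GENCODE M21 (names and types only) and held 98.8 to 99.1% of counts. Gene sums of the counts, rounded, entered edgeR 4.0.16 (TMM, filterByExpr, quasi-likelihood, group plus replicate block, 16 libraries, Benjamini-Hochberg over all 16971 genes, called at 0.05). Fold changes are log2, and SE is the fold change over the root of F. The labels give shared replicate numbers. Same-numbered libraries correlated at 0.155 to 0.791 in all 4 comparisons after group means were removed (minimum 0.1), so they were treated as paired. For 6 of 16, however, the closest library of the other group had another number. Each time the 2 numbers were 1 and 4, or 2 and 3, so these sets resembled each other. The dispersion (BCV) was 0.122 with the block. No replicates were duplicates. P-values measure the spread between these cultures, stated to be biological replicates. The model takes the 4 sets as independent, which was not tested.

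Alternatives were no block, DESeq2 1.42.0, other size factors, no filter, a transcript length offset or trend correction (lowess span 0.3), and leaving out each set and library. The block and set 1 were removed together as an alternative chosen after seeing the data. The family, and so its members, and the gene lists were chosen with earlier results of these data known. Values are given per library for called members, or for the 3 smallest p-values where fewer than 3 were called. Chd1, the 3 highest collagens and laminins, and called genes of the lists are also named. The scripts were tested on simulated data.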

Additional observations from a re-analysis of the deposited data

Results flagged for a closer look

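Of 52 groups of 4 libraries examined, 5 held a library far from the other 3 by Dixon's test, and chance flags about 1 in 20 groups. Col28a1 was 217.3 CPM in KO DHT replicate 2, against 136.6 to 149.9 CPM in the other 3. Col4a2 was flagged in 3 groups: it was 85.81 CPM in WT DMSO replicate 1 (others 64.73 to 68.3), 51.62 CPM in KO DMSO replicate 3 (others 61.31 to 62.78) and 72.11 CPM in KO DHT replicate 3 (others 68.07 to 68.66). Lamb2 was 213.2 CPM in WT DMSO replicate 1, against 167.3 to 171.7 CPM.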

How the results depend on the processing

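The number of calls depended on the processing more than the fold changes did: of 351 values of the named family genes under alternatives, 300 stayed on the same side of the threshold, 43 lost the call, 8 gained it and 0 changed sign. With no replicate block, the pairing unused, 45 genes were called for DHT+ENZ against DHT and 43 against DMSO, with 0 family genes in each. With set 1 also left out they were 0 and 0, with 0 family genes, and 0 in the other comparisons. With DESeq2, 9 genes were called for KO against WT DMSO, 1031 for DHT+ENZ against DHT and 820 against DMSO, where 1 family gene, Col5a2, was called. With no low-count filter they were 44 for KO against WT DMSO and 8 for DHT against DMSO, with 1 family gene for DHT+ENZ against DHT, as with RLE size factors. A transcript length offset gave 1 gene for KO against WT DMSO, and 270 and 288 for the 2 DHT+ENZ comparisons. The length trend correction and the offset left 0 family genes for DHT+ENZ against DHT. When each library or set was left out, genes called ranged from 0 to 15 for KO against WT DMSO, 0 to 1 for DHT against DMSO, 48 to 1480 for DHT+ENZ against DHT and 59 to 1247 against DMSO. Family genes called ranged from 0 to 4 and 0 to 3 in the last 2 and were 0 in the first 2. The maxima 1480 and 1247 were without WT DMSO replicate 1, and the minima 48 and 59 without set 4. The cause was not tested. Depth limits the 12 family genes under the filter, at 0 to 19 counts.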
